A study of Mus musculus with 8 samples.

Results

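Chromosome 6 of the mouse was followed probe by probe in 8 liver tumors, with the weight on an interstitial loss, a deletion with retained chromosome on both sides, and on its 2 edges. All 10252 array probes placed on chromosome 6 of the mm9 build were taken, of 170305 probes on the array. They run from position 3131098 to 149512014, over 146.4 Mb, with a median spacing of 10.685 kb. The widest gap without a probe, 551 kb, lies between 130427680 and 130979083.

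Tumor DNA came from 8 individual male FAH-/- mice, in which the gene for fumarylacetoacetate hydrolase, an enzyme that completes the breakdown of tyrosine, is disrupted. NTBC (nitisinone), which stops that pathway further upstream and so protects such mice, was given at 7.5 mg/L in their water. The dose was then lowered to 2.5% of this treatment over a period lasting between 6 and 12 months. Their ages are not given in the sources used here. Each tumor (Cy5) was hybridized together with a reference (Cy3) pooled from the livers of 6 male FAH+/+ littermates, in array comparative genomic hybridization, with 1.5 µg of DNA labelled. The tumors are numbered 1 to 8 in the order of deposition and form 1 group. The dyes were not swapped, the reference is a single pool, and no normal liver of a tumor-bearing mouse was on an array, so the spread between control mice is in no error given here.

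In such an experiment both DNAs compete for the same probes, and the log2 of the tumor signal over the reference signal follows the relative number of copies. Where all cells lose 1 of 2 copies the log2 ratio is -1, and cells without the change in the same tissue bring the value closer to 0. The share of tumor cells and the number of copies per cell were not measured, so a ratio is not a copy number. Losses of a whole chromosome change every gene on it together, whereas an interstitial loss has 2 breakpoints, which the array places between neighbouring probes.

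Unless stated otherwise, values are log2 ratios with the commonest autosomal level of each tumor set to 0. The arrays also share a pattern, in which the same probes read high or low in every tumor. A second scale, called pattern-subtracted below, removes for each tumor the median pattern of the other 7 arrays, scaled by a slope. The pattern was smaller in tumors 7 and 8, with slopes of 0.54 and 0.57, against 1.02 to 1.07 in tumors 1 to 6. The noise between neighbouring probes was 0.62 to 0.66 (SD) in tumors 1 to 6 and 0.39 in tumors 7 and 8, and 0.15 to 0.22 on the pattern-subtracted scale. Of the chromosome 6 spots, 97.3% to 99.9% per array were marked as well above background. Their median signal exceeded local background 4.27 to 11.1 times for the reference dye and 4.24 to 6.28 times for the tumor dye. Tumors 1 to 4 were on 1 slide and tumors 5 to 8 on the other, scanned on different days.

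The large interstitial loss was present in tumor 1. It spanned 6:33230044-94158984, 60.9 Mb with 4444 probes, which is 43.3% of the probes and 41.6% of the probed length of the chromosome. The chromosome was retained on both sides, over 30.1 Mb with 1919 probes on the proximal side and over 55.3 Mb with 3889 probes on the distal side. The mean log2 ratio inside was -0.68 ± 0.011 (SE over 4443 measured probes), a tumor-to-reference ratio of 0.625. It was 0.046 ± 0.016 on the proximal side and 0.018 ± 0.011 on the distal side (SE over probes). Probes of 1 tumor are not replicates, so these errors cover the spread between probes of tumor 1 only, and the loss is given as a description with no test because the interval was chosen from it.

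**Figure D1:**
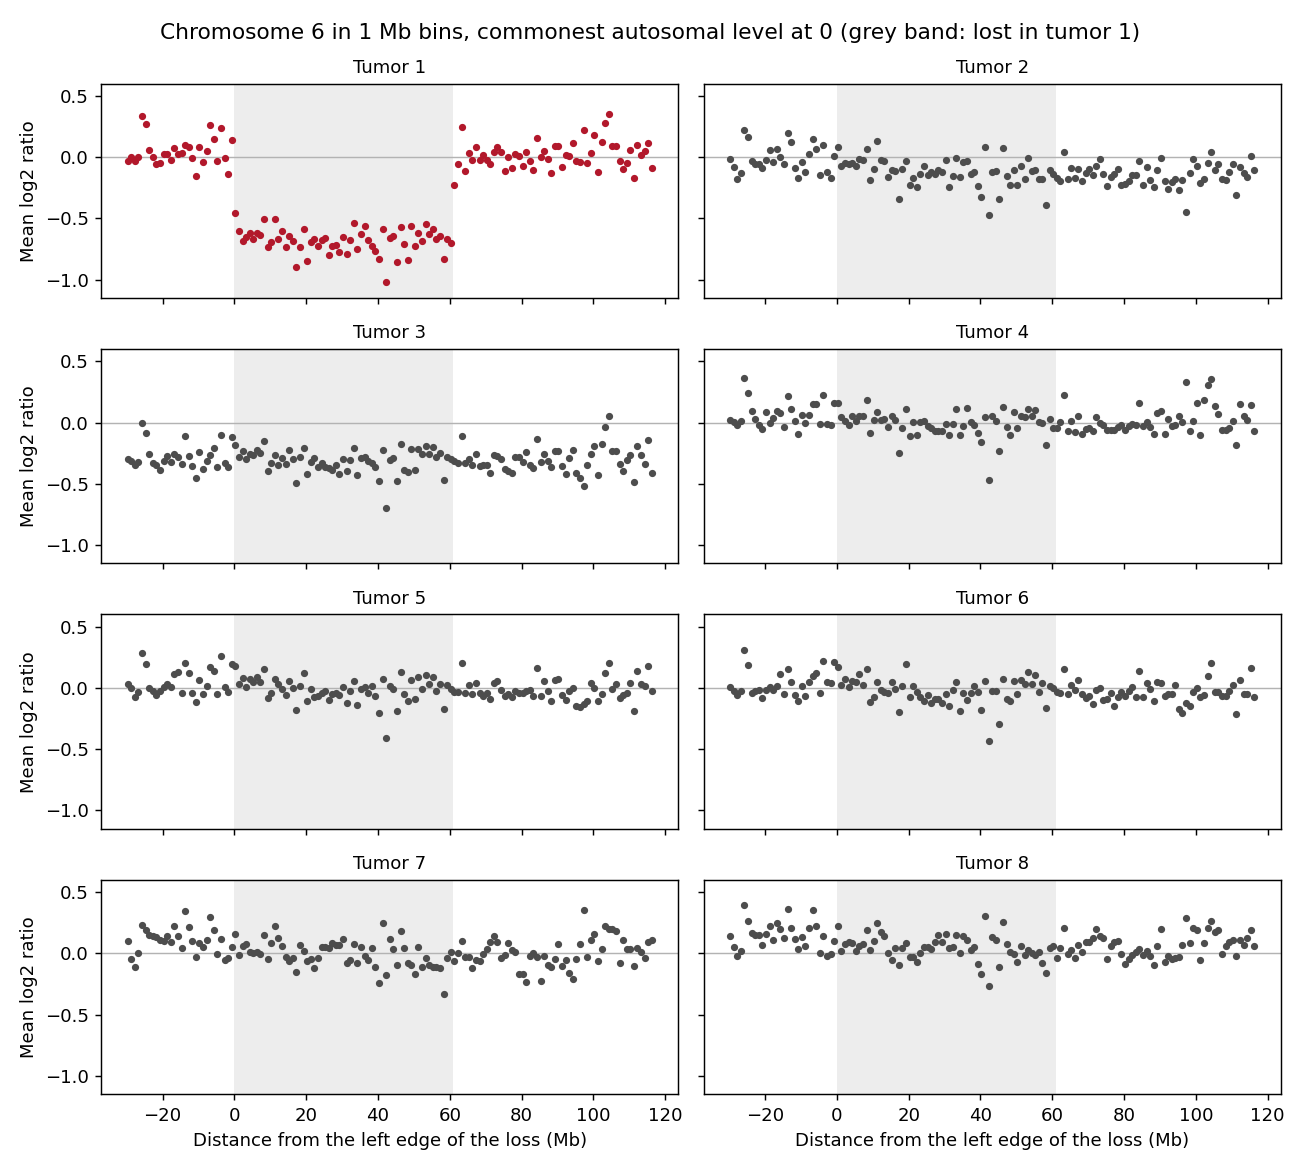
Mean log2 ratio in 1 Mb bins (y axis) against the distance in Mb from the left edge of the loss (x axis) in each of the 8 tumors; the grey band is the stretch lost in tumor 1. Bins inside the band lie between -1.02 and -0.50 in tumor 1, and tumor 3 lies near -0.30 along nearly all of the chromosome. Tumor 2 lies below 0, with segment means of -0.030 and -0.14, and the other tumors lie near 0.

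Over the same probes inside the interval, the means of tumors 2 to 8 were -0.12, -0.31, -0.004, -0.007, -0.015, -0.013 and 0.042. Tumor 1 was thus lower than all 7 others, and tumor 3 was next, with a level that it also had on the rest of the chromosome. Of the probes inside, 82.7% were below 0 in tumor 1, against 55.0% of its probes outside. On the pattern-subtracted scale these shares were 98.4% and 50.3%, and the mean inside was -0.66 ± 0.004 (SE over probes, ratio 0.633). On the first scale the median over probes was -0.79 inside and -0.10 outside. With the pattern subtracted these medians were -0.68 and -0.001.

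In 1 Mb bins the loss ran through its whole length. All 60 complete 1 Mb bins inside it were below -0.2 in tumor 1, between -1.02 and -0.50, and on the pattern-subtracted scale they narrowed to between -0.74 and -0.57 with an SD of 0.039 between bins. When the interval was divided into 6 stretches of equal length, their means lay between -0.72 and -0.63, and between -0.68 and -0.64 with the pattern subtracted. The bin with the lowest value of tumor 1, 6:75000001-76000000 at -1.02 over 23 probes, was also the lowest bin of tumors 2, 3, 4, 5, 6 and 8, at -0.47, -0.70, -0.46, -0.41, -0.44 and -0.27. With the pattern subtracted this bin read -0.58 in tumor 1, among the highest inside the loss. The depth of that bin in tumor 1 thus moved with a low value common to most of the arrays.

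On the first scale segmentation did not divide the loss. With the pattern subtracted it divided it into 12 segments, with means between -0.86 (6:57420111-57657099, 21 probes) and -0.013 (6:58462091-58565014, 5 probes). Of the 12, 2 fell short of a call, the last named and 6:46967456-47001075 (5 probes, -0.19), and 2 more were shallow, 6:57333700-57397145 (5 probes, -0.28) and 6:83124731-83200193 (8 probes, -0.28). Within these 4 short segments the probes did not move together. At 6:58462091-58565014 they read -0.06, -0.20, -0.59, 1.37 and -0.60 in order, and at 6:46967456-47001075 they read 0.75, -0.54, -0.23, -0.37 and -0.58, with 1 probe above 0 in each. Whether a short piece of DNA was retained at any of the 4 was not tested.

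Runs of neighbouring probes were counted as well. A line was set at -0.33 on the pattern-subtracted scale, midway between 0 and the mean inside, and 391 of the 4443 probes inside (8.80%) lay above it. The longest run of neighbouring probes above it was 3 probes, at 6:39506840-39527393, with a mean of -0.21. Outside the loss, 83 of 1918 proximal probes (4.33%) and 122 of 3889 distal probes (3.14%) lay below it, in runs of at most 2 and 3 probes. At the spacing of this array a retained or lost piece shorter than a few probes would not be seen.

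**Figure D2:**
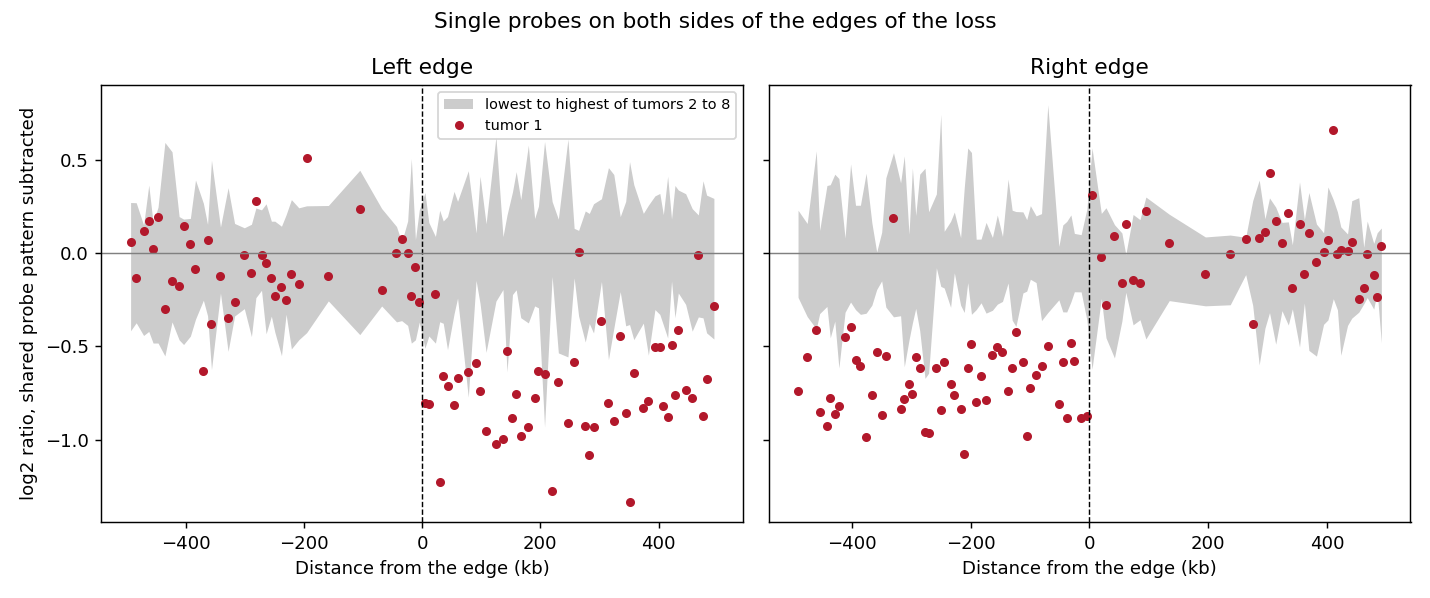
Single probes within 500 kb of the left and right edges of the loss (x axis, distance from the edge in kb), with the pattern-subtracted log2 ratio on the y axis; red points are tumor 1 and the grey band runs from the lowest to the highest of tumors 2 to 8. Tumor 1 goes from a median of -0.11 to -0.77 across the left edge and from -0.70 to 0.014 across the right edge.

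The left, proximal edge lies between probe A_67_P05856555, which ends at 33220522, and probe A_67_P05856582, which starts at 33230044, a gap of 9.52 kb. In tumor 1 the last 5 pattern-subtracted values before the edge were 0.08, -0.00, -0.23, -0.07 and -0.26, and the first 5 after it were -0.80, -0.81, -0.22, -1.23 and -0.66. The third probe inside reads like the flank, and the first 2 are already at the level of the loss. The position of highest likelihood was this gap, and positions within 2 log-likelihood units spanned 16.0 kb, from 33214042 to 33230044, over 2 possible gaps. Without subtraction the same gap was found, with 5 possible gaps over 47.9 kb.

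The right, distal edge lies between probe A_67_P05987768, which ends at 94158984, and probe A_67_P05987790, which starts at 94167517, a gap of 8.53 kb. The last 5 values inside were -0.88, -0.48, -0.58, -0.88 and -0.87, and the first 5 outside were 0.31, -0.02, -0.28, 0.09 and -0.16. All 5 values inside were below all 5 outside, and no other gap lay within 2 log-likelihood units. Without subtraction the edge was at the same gap, with 3 possible gaps over 56.0 kb. With each edge in its gap of highest likelihood, the loss is at most 60.947 Mb, measured between the outer probes. The wider ranges of positions given above are not counted in this length. The array does not show what joins the 2 ends.

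Neither edge was seen as a loss in another tumor. Across the left edge the mean of the 50 probes inside minus that of the 50 probes outside was -0.80 ± 0.13 (SE over probes) in tumor 1, and between -0.16 and 0.03 in the other 7. Across the right edge it was -0.67 ± 0.14 in tumor 1 and between -0.06 and 0.06 in the other 7. On the pattern-subtracted scale the steps of tumor 1 were -0.69 ± 0.048 and -0.68 ± 0.040, and those of the other 7 were 0.00 to 0.12 and 0.01 to 0.14. On the first scale, segmentation placed no border of tumors 2 to 8 at either gap, and nearest to the left edge was a short called gain of tumor 7, 6:32732219-33800206, which spans that edge. With the pattern subtracted, tumor 8 had a border 1 gap before the left edge, after 33214042, with 0.031 before and 0.19 after it, a step opposite to that of tumor 1. Tumor 2 had a border after 33182026 (-0.14 before, -0.023 after) and one after 94125037 (-0.053 before, -0.15 after), and tumor 3 had one after 94183234 (-0.21 before, -0.32 after). In each of these the stretch inside the interval was the higher one. The pattern subtracted from tumors 2 to 8 holds tumor 1 with its loss as 1 of its 7 arrays, and the part of this in these borders was not tested.

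**Figure D3:**
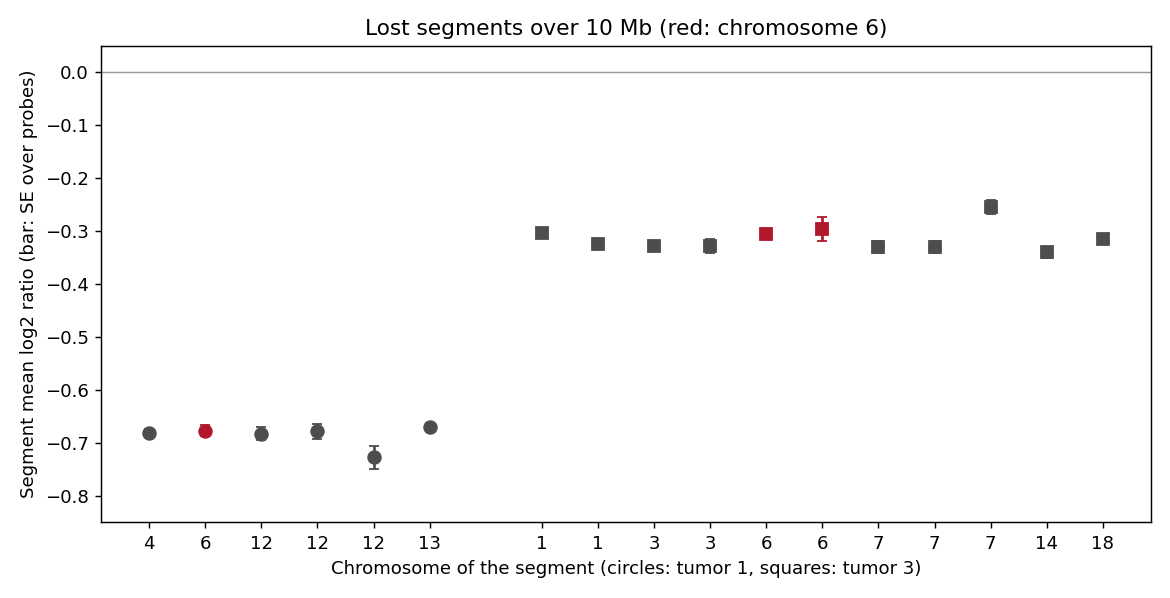
Mean log2 ratio (y axis, bars are the SE over probes) of every lost segment over 10 Mb in tumor 1 (circles) and tumor 3 (squares), ordered by chromosome (x axis); chromosome 6 is red. The 6 segments of tumor 1 lie between -0.73 and -0.67, and the 11 of tumor 3 between -0.34 and -0.25.

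The depth of the loss was close to that of the other large losses of the same tumor. Tumor 1 also had low levels over all of chromosome 4 (-0.68 ± 0.007, SE over 9973 probes), chromosome 12 (-0.69 ± 0.008) and chromosome 13 (-0.67 ± 0.008). With the pattern subtracted the chromosome 6 loss was at -0.66 ± 0.004, beside -0.67 ± 0.002 for chromosome 4, -0.69 ± 0.003 for chromosome 12 and -0.66 ± 0.003 for chromosome 13. On that scale the loss read shallower than chromosomes 4 and 12, while on the first scale the loss and chromosome 4 both read -0.68. The SE covers probes of 1 tumor only, so a difference in depth was not tested. Tumor 1 had 448 of 2531 bins of 1 Mb in lost segments over the autosomes and X (17.7%), and 61 of the 147 bins of chromosome 6. That chromosome 6 holds more than the share over all chromosomes follows from its choice and was not tested.

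Tumor 3 was lower along nearly all of chromosome 6. Its mean over the chromosome was -0.30 (ratio 0.814), and the called losses 6:3131098-135061635 (-0.30 ± 0.007, SE over 9166 probes) and 6:138076812-149512014 (-0.30 ± 0.023, SE over 836 probes) cover 97.9% of the probed length. In tumor 3, 144 of the 147 bins were in lost segments, against 30.5% of bins over all chromosomes, and 0 were in gains, against 3.95%. Its means inside, proximal to and distal to the interval of tumor 1 were -0.31, -0.28 and -0.30, so tumor 3 had no step there. Its chromosomes 1, 3, 7 and 18 had means of -0.31, -0.33, -0.31 and -0.27, and a distal segment of chromosome 14 had -0.34. On the first scale chromosome 6 was within the range of the other losses of tumor 3, as the interval was in tumor 1. The loss of tumor 3 was shallower than the -0.68 of tumor 1. Its call depended on the centring. With the array median as 0, tumor 3 had 0 called losses on chromosome 6 and a chromosome mean of -0.10. With the pattern subtracted the interval of tumor 1 was at -0.659, just short of the -0.662 of chromosome 13, its shallowest whole-chromosome loss.

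The stretch between both losses of tumor 3, 6:135073838-138059174 with 250 probes, read -0.035 in tumor 3. The same probes read 0.27, -0.06, 0.29, 0.09, 0.08, 0.18 and 0.20 in tumors 1, 2, 4, 5, 6, 7 and 8. They were higher than the rest of chromosome 6 by 0.27 in tumor 3 and by 0.06, 0.28, 0.10, 0.10, 0.17 and 0.14 in tumors 2, 4, 5, 6, 7 and 8. All these tumors were higher there, tumors 3 and 4 the most and tumor 2 the least. With the pattern subtracted the stretch was at -0.24 in tumor 3, 0.06 above the rest of the chromosome. On that scale the difference from the rest was -0.18, -0.15 and -0.15 in tumors 2, 5 and 6.

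**Figure D4:**
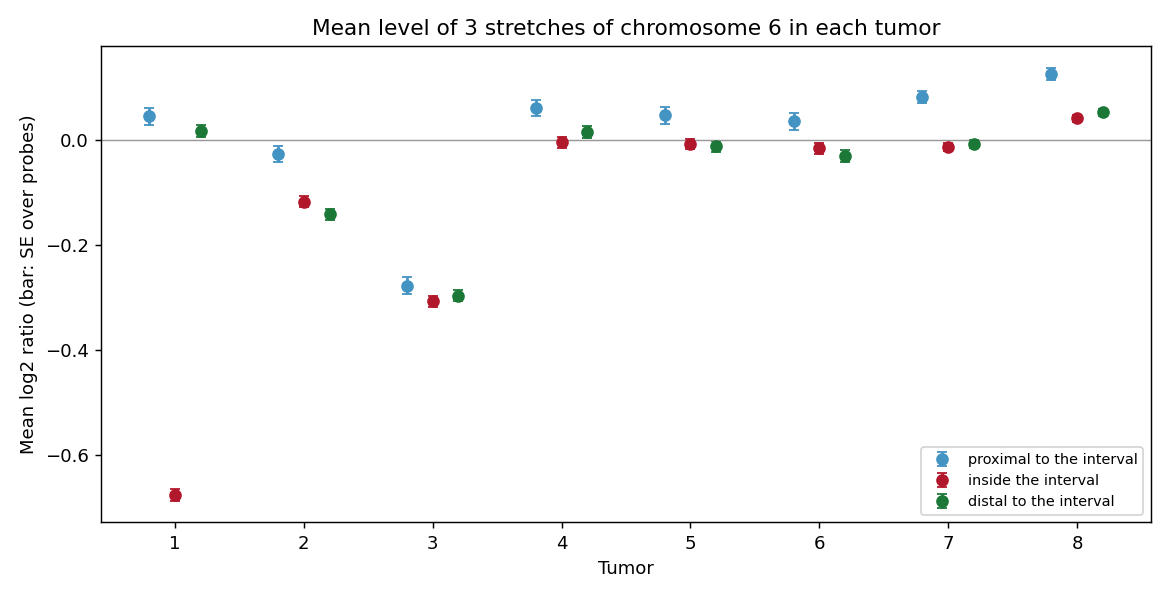
Mean log2 ratio (y axis, bars are the SE over probes) proximal to, inside and distal to the interval of tumor 1, in each tumor (x axis). Inside the interval tumor 1 is at -0.68, while in each of tumors 2 to 8 the 3 levels lie close together, with proximal minus distal at most 0.11.

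Whether the interval also stood apart in the tumors that did not set it was tested. Inside minus outside was -0.70 in tumor 1. In tumors 2 to 8 it was -0.014, -0.018, -0.035, -0.015, -0.008, -0.036 and -0.036, with a mean of -0.023 ± 0.012 (SD, n = 7), below 0 in 7 of 7 tumors. The two-sided exact sign-flip permutation p was 0.0156, the lowest value possible with 7 tumors. The sign depended on the scale. Pattern-subtracted, the mean was 0.059, above 0 in 7 of 7 (exact p = 0.0156), but there the subtracted pattern holds the loss of tumor 1 as 1 of its 7 arrays. With tumor 1 kept out of the pattern, an alternative added after seeing the data, the mean was -0.0035 with an exact p of 0.656. No difference of either sign was thus shown by all 3 scales.

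Tumor 2 was split by segmentation at 47454640. The proximal stretch was at -0.030 ± 0.012 (SE over 3070 probes) and the rest, 102.0 Mb, at -0.14 ± 0.008 (SE over 7181 probes), short of the 0.2 set for a call. Proximal minus distal at this border was 0.11 in tumor 2, and in tumors 1 and 3 to 8 it was between 0.03 and 0.10. All 8 tumors were higher on the proximal side, tumor 2 the most. On the pattern-subtracted scale it was 0.026, 0.052, -0.051, -0.023, -0.011, -0.011, 0.055 and 0.041 in tumors 1 to 8, so the sign turned in tumors 3 to 6 and tumor 7 was as high as tumor 2.

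Tumors 5 and 6 had no call. Segmentation split both at the same gap, after 41736414, with 0.056 before and -0.017 after it in tumor 5, and 0.047 and -0.031 in tumor 6. The steps were 0.074 and 0.079, and on the pattern-subtracted scale they turned to -0.017 and -0.011. Of the 147 bins of chromosome 6, 0 were called in either tumor. Over all chromosomes, 15.8% of bins were gained and 0.553% lost in tumor 5, and 3.95% were gained and 34.2% lost in tumor 6. Tumor 2 also had 0 bins called on chromosome 6, against 0.83% gained and 2.45% lost over all chromosomes.

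Over the 8 tumors, segmentation gave 62 segments on chromosome 6, with 9 called losses and 9 called gains at a mean of at least 0.2 in size over at least 5 probes. Tumor 1 had 1 loss and 1 gain, tumor 3 had 2 losses, tumor 4 had 1 gain, tumor 7 had 5 losses and 5 gains, tumor 8 had 1 loss and 2 gains, and tumors 2, 5 and 6 had none. Of the 1 Mb bins of chromosome 6, 5 were in gains in tumor 1 (1.07% of all bins), 4 in tumor 4 (4.78%), 5 in tumor 7 (1.66%) and 1 in tumor 8 (3.67%). In losses there were 0 in tumor 4 (9.32% of all bins), 5 in tumor 7 (8.69%) and 2 in tumor 8 (20.5%). Tumors 7 and 8, which have the lower noise, hold 26 and 19 of the 62 segments. The smallest called gain was 0.204 (tumor 7, 6:136008799-140184513) and the largest segment short of a call was 0.197 (tumor 8, 6:134894232-139682962). For losses these were -0.201 (tumor 8, 6:90352703-91689574) and -0.186 (tumor 7, 6:84048779-84545621).

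The short calls are given with the values of all tumors over the same probes. The called gains near 135 to 140 Mb of tumors 1, 4 and 7 overlap. Over the probes of the tumor 1 call, 6:135114281-139594329, tumors 1 to 8 read 0.24, -0.04, -0.08, 0.26, 0.10, 0.09, 0.19 and 0.20. Tumors 1, 4, 7 and 8 were higher than tumors 2, 3, 5 and 6 there, with no overlap. The level of the whole chromosome, -0.30 in tumor 3, was not taken off these values. Against the rest of the chromosome over 6:135073838-138059174, which overlaps this call, tumor 3 was higher by 0.27, more than tumors 7 and 8 (0.17 and 0.14). On that measure the division did not hold. With the pattern subtracted, tumors 1, 4, 7 and 8 read 0.08, 0.06, 0.08 and 0.11, and tumors 2, 3, 5 and 6 read -0.24, -0.27, -0.12 and -0.14.

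The called loss of tumor 8 at 6:90352703-91689574 lies within the interval lost in tumor 1, and the 8 tumors read -0.86, -0.38, -0.45, -0.20, -0.17, -0.14, -0.31 and -0.20 over it. Every tumor was below 0 there on the first scale, and tumor 8, the one called, was not among the lowest. With the pattern subtracted the 8 tumors read -0.64, -0.14, -0.17, 0.07, 0.10, 0.13, -0.19 and -0.04.

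The called loss of tumor 7 at 6:90955887-91768701, which overlaps it, read -0.40 in tumor 7 and -0.88, -0.43, -0.52, -0.23, -0.24, -0.20 and -0.21 in tumors 1 to 6 and 8. With the pattern subtracted it read -0.26 in tumor 7 and -0.62, -0.15, -0.20, 0.09, 0.08, 0.11 and -0.03 in tumors 1 to 6 and 8. Tumor 7 had 3 further losses between 112 and 119 Mb. Over 6:112216048-114954465 tumors 1 to 8 read -0.04, -0.24, -0.31, -0.06, -0.06, -0.07, -0.21 and -0.07, and over 6:118105948-118945579 they read -0.07, -0.30, -0.40, -0.11, -0.13, -0.14, -0.30 and -0.07. In both stretches tumor 7 was lower than tumors 1, 4, 5, 6 and 8, while tumors 2 and 3, whose means over the whole chromosome were -0.11 and -0.30, were as low or lower. Over 6:115751507-115951426 (18 probes) the 8 tumors read -0.42, -0.57, -0.71, -0.41, -0.46, -0.39, -0.47 and -0.30, so all were below -0.2 there on the first scale. With the pattern subtracted they read 0.03, -0.18, -0.28, 0.01, -0.07, 0.02, -0.26 and -0.05, with tumors 3 and 7 the lowest.

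The called gain of tumor 8 at 6:7624783-7660629 rests on 5 probes, with a mean of 1.82 ± 0.78 (SE over probes) in tumor 8. The means of the 8 tumors over these probes lay between 1.24 and 1.88. With the pattern subtracted the mean was 0.95 ± 0.43 in tumor 8 and between -0.48 and 0.31 in the others.

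The gain of tumor 7 that spans the left edge, 6:32732219-33800206, read 0.26 there and 0.19, -0.07, 0.28, 0.30, 0.30 and 0.26 in tumors 2 to 6 and 8. The gain of tumor 7 at 6:83882283-84043022 read 0.31, and 0.40, 0.12, 0.41, 0.42, 0.40 and 0.32 in tumors 2 to 6 and 8. In tumor 1 the first stretch, which lies partly inside the loss, read -0.18, and the second, wholly inside, read -0.24. The gain of tumor 8 at 6:96236564-96941992 read 0.28, with 0.33, 0.32, 0.26 and 0.23 in tumors 1, 4, 5 and 6. Tumors 2, 3 and 7 were lower there, at 0.12, -0.03 and 0.14. On the first scale none of these 3 was higher in the tumor called than in every other tumor. With the pattern subtracted this held for both gains of tumor 7, at 0.12 and 0.09, beside 0.14 and 0.12 in tumor 8. The gain of tumor 8 read 0.15 on that scale, against -0.32 to 0.07 in the others.

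The short calls near 130 and 133 Mb differed between tumors. Their division was that of the values at 135 to 140 Mb before each tumor's own level was taken off. Over 6:129916600-130254771 (15 probes, gain of tumor 7) tumors 1 to 8 read 0.40, -0.42, -0.43, 0.52, -0.17, -0.21, 0.65 and 0.45. Over 6:133023187-133228228 (8 probes, gain of tumor 7) they read 0.47, -0.10, -0.08, 0.69, 0.07, 0.12, 0.69 and 0.45. In both stretches tumors 1, 4, 7 and 8 were higher than tumors 2, 3, 5 and 6, with no overlap. The called loss of tumor 7 just before the first, 6:129795763-129908872 (13 probes), had another order, with -0.52 in tumor 7, -0.34 in tumor 4, -0.27 in tumor 3 and between -0.14 and -0.05 in the rest.

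Single probes were followed up there, in a list chosen after their values were seen. After each tumor's own level on the chromosome was taken off, 70 of 10240 chromosome 6 probes (0.684%) had a range of at least 2 over the 8 tumors, against 0.589% of probes over all chromosomes and 0.583% over the other 19. In order of this share chromosome 6 was number 5 of 20. Where the tumors were divided at the largest gap between their values, 12 of the 70 probes had tumors 2, 3, 5 and 6 on the low side, and 16 had tumors 7 and 8 there. These divisions were not counted on the other chromosomes, so whether either number is particular to chromosome 6 was not tested. Tumors 7 and 8 carry the shared probe pattern at a smaller size, and its part in the 16 probes was not tested. The 12 probes all lie between 125685388 and 133228228, distal to the loss of tumor 1.

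**Figure D5:**
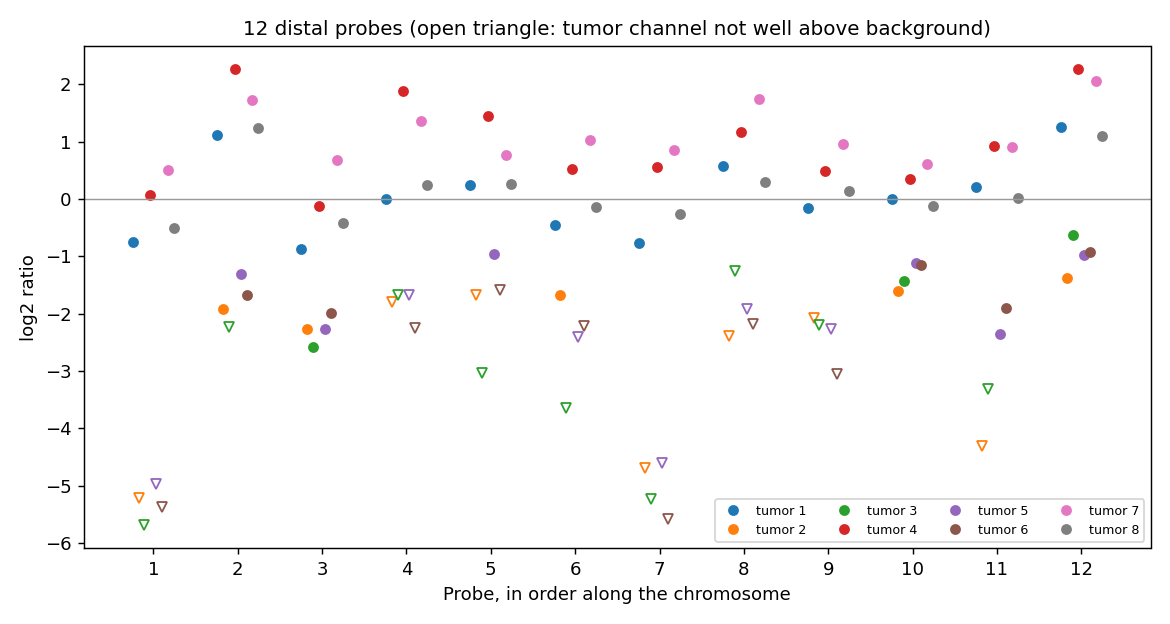
Log2 ratio (y axis) of the 8 tumors at the 12 distal probes with tumors 2, 3, 5 and 6 on the low side, in order along the chromosome (x axis); open triangles are values whose tumor signal was not well above background. Tumors 4 and 7 hold the highest values, tumors 1 and 8 lie below them, and tumors 2, 3, 5 and 6 lie lowest, down to -5.70.

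Probe A_67_P06068728 at 6:129690108-129690167 read -0.78, -4.70, -5.23, 0.56, -4.61, -5.58, 0.86 and -0.27 in tumors 1 to 8. Probe A_67_P06058979 at 6:125685388-125685447 read -0.74, -5.22, -5.70, 0.07, -4.98, -5.38, 0.50 and -0.50. At both probes the tumor signal of tumors 2, 3, 5 and 6 was not well above background, so their values are only bounds, and the reference signal was above background on all 8 arrays. These 4 tumors thus gave little or no measurable signal at either probe, while the other 4 did.

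Probe A_67_P06073894 at 6:133228169-133228228 had tumor signal above background in all 8 tumors and read 1.25, -1.38, -0.63, 2.26, -0.99, -0.93, 2.05 and 1.09. Its reference signal was not well above background on 1 of the 8 arrays. Tumors 4 and 7 were again the highest and tumors 2, 3, 5 and 6 the lowest. The division of the tumors was taken from these values, so it received no test. Tumors 2 and 3 share a slide with tumors 1 and 4, and tumors 5 and 6 share the other with tumors 7 and 8, so each slide holds 2 tumors of either side. The sequence of the probes, the strain background of the mice and the genes at these positions were not used here, and their part in these values was not tested.

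Other probes stood out in 1 tumor. Probe A_67_P05798623 at 6:5082355-5082414 read 3.47 in tumor 6 and between 0.42 and 0.95 in the others. It is a single probe, and no called segment of tumor 6 lies there.

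The mean of the whole chromosome was tested in all 8 tumors. It was -0.28, -0.11, -0.30, 0.016, 0.002, -0.011, 0.008 and 0.062 in tumors 1 to 8, with a mean of -0.076 ± 0.14 (SD, n = 8), below 0 in 4 of 8. The two-sided exact sign-flip permutation p was 0.219, and 0.398 after Benjamini-Hochberg adjustment over 20 chromosomes, of which 4 (20%) passed an adjusted p of 0.05. Without tumors 1 and 3, a choice made after seeing the data, the mean was -0.0055 (exact p = 0.875, adjusted p = 0.906). A shift of chromosome 6 common to the 8 tumors was not shown, and its negative mean rests on tumors 1 and 3.

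Both tumors with large losses were on the first slide. The chromosome 6 mean was -0.17 ± 0.15 (SD, n = 4) on that slide and 0.015 ± 0.032 (SD, n = 4) on the other, a difference of -0.18 with a two-sided exact permutation p of 0.114 over 70 splits, of which the smallest possible is 0.0286. Inside minus outside in the tumors other than tumor 1 had a mean of -0.022 on the first slide and -0.024 on the second, so it did not differ by slide beyond its SD of 0.012.

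In a limma fit of 2531 bins of 1 Mb over all chromosomes, with shifts of more than 0.1 tested, 0 of the 147 bins of chromosome 6 were lower and 0 were higher over the 8 tumors at an adjusted p of 0.05, against 0.079% and 0.0395% of all bins. At an unadjusted p of 0.05 limma gave 6 lower and 2 higher of the 147 bins. The share over all bins at this cut was not counted, so these 2 numbers are not read as a result. The lowest bin by its mean over the tumors was 6:75000001-76000000 at -0.49 ± 0.26 (SD, n = 8), followed by those starting at 91000001 (-0.34), 50000001 (-0.33), 73000001 (-0.32) and 78000001 (-0.32). All 5 lie inside the interval lost in tumor 1, and tumor 1 holds the lowest value in each. The highest were those starting at 7000001 (0.27), 137000001 (0.21), 19000001 (0.18), 8000001 (0.18) and 26000001 (0.15), all of them outside the interval.

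Chromosome 6 carries genes with known roles in liver growth and tumors. A list of 36 such genes, drawn up for this chromosome, was checked in a RefSeq table of another build, GRCm38.p6. All 36 are on chromosome 6 there, which follows from how they were chosen and is not a result. The 36 include Met, the receptor of hepatocyte growth factor, and Braf, a kinase that carries growth signals from receptors toward the nucleus. Tgfa encodes a ligand of the epidermal growth factor receptor, and Ccnd2 and Foxm1 drive the cell cycle. Among genes known as tumor suppressors or brakes on the cycle are Vhl, which targets hypoxia factors for breakdown, and Cdkn1b, an inhibitor of cyclin-dependent kinases. Mad2l1 acts in the spindle checkpoint. Ogg1, Xpc, Fancd2 and Rad52 repair DNA damage, and Fabp1, Akr1d1 and Gstk1 act in fatty acid transport, bile acid synthesis and detoxification. In tumor 3 the called losses cover nearly all of the chromosome on which these genes lie. Since the probe positions are on mm9 and no annotation of that build was used here, none of the 36 is placed inside or outside the interval lost in tumor 1, and DNA ratios say nothing of the level of their transcripts.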

How the data were processed

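The arrays were Agilent mouse comparative genomic hybridization arrays, extracted with Agilent Feature Extraction 10.7.3.1, per the submitters' processing notes. The deposited intensity values of both dyes had local background removed, a spatial trend corrected and the dyes brought to 1 scale by a linear factor, per the file headers. The deposited log ratios and series table are log10 of red (tumor) over green (reference), not centred, and differed by at most 0.00499. The deposited quality marks are flags of 0 or 1, a unit of the kind other. Positions are on mm9, per the file headers.

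Log2 of red over green processed signal was computed here. Spots with an outlier mark were left out (3 to 14 per array on chromosome 6), spots of a probe were averaged, and the commonest autosomal segment level was set to 0, which lay 0.023 to 0.246 above the array median. Segments came from a custom version of circular binary segmentation (1% false splits on simulated noise, values limited to 4 noise SD, segments merged below a z of 4, at least 5 probes, calls from 0.2), tested on simulated data. For the second scale the median of the other 7 arrays, after subtraction of chromosome medians, was scaled by regression on the other chromosomes and subtracted. Edges were Gaussian change points on that scale within 10 Mb. The treat test of limma 3.58.1 in R 4.3.3 ran on 1 Mb bins with at least 10 probes. Python 3.11.15, numpy 2.4.6, pandas 2.3.3, numba 0.67.0 and matplotlib 3.10.9 were used. Precision is limited by the number of arrays.

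The regions, the gene list and the tests were chosen with earlier results of these data known. Named are all called segments, the edge probes, the 5 lowest and 5 highest bins, genes of a list by chromosome, and single probes chosen after seeing their values. The tumors are treated as separate replicates because the labels give individual mice. Alternatives covered centring, the pattern, normexp with an offset of 50, dim probes, the deposited table, call and split thresholds, and leaving out tumors. No sequence of a probe was used.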

Additional observations from a re-analysis of the deposited data

Results flagged for a closer look

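In 27 sets of 8 values on chromosome 6, the highest or lowest tumor was checked for a gap to its neighbour that is wide beside the range of all 8, a check that chance passes in about 1 of 20 sets. In 7 sets 1 tumor stood apart. Tumor 1 did so for inside minus outside of its loss (-0.70), for the steps of 50 probes at the left edge (-0.80) and the right edge (-0.67), and over 3 short stretches called in other tumors that lie inside its loss, 6:83882283-84043022 (-0.24), 6:90955887-91768701 (-0.88) and 6:90352703-91689574 (-0.86). These 6 all restate the loss by which the interval was chosen. Tumor 3 stood apart for the mean proximal to the interval (-0.28), where tumor 1 is retained.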

How the results depend on the processing

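The loss of tumor 1 kept its direction under every alternative run. Its depth was -0.46 with the array median as 0. The left edge moved to 33268243 under normexp and was otherwise at 33230044, and the right edge did not move. Both large losses of tumor 3 were no longer called with the array median as 0, where these segments read -0.10 and -0.09. Called losses on chromosome 6 went from 9 to 5 (array median), 84 (pattern subtracted) and 4 (normexp), and gains from 9 to 21, 28 and 3, and to 16 and 4 at call thresholds of 0.1 and 0.3. Inside minus outside in the other tumors turned to 0.059 with the pattern subtracted. It was -0.0035 with the pattern taken without tumor 1 (exact p = 0.656), -0.022 within slide 1 (exact p = 0.25) and -0.024 within slide 2 (exact p = 0.125), the smallest p that 3 and 4 tumors allow, and -0.018 without tumors 7 and 8 (exact p = 0.0625). Leaving out each tumor gave -0.0255 to -0.0208. The chromosome 6 mean turned to 0.066 with the array median as 0 and was 0.015 within slide 2; leaving out each tumor gave -0.0958 to -0.0444. Among limma bins, 1 was lower with the array median or with slide as a block, and 9 were higher with the array median; leaving out each tumor gave 0 to 1 in either direction, with 1 lower without tumor 1 and 1 higher without tumor 3. The cause of these changes was not tested. Noise limits single-probe statements, most in tumors 1 to 6. No paired analysis was possible because the tumors form 1 group.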
